A study of Peromyscus maniculatus with 16 samples.

Results

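The genes described here are NRF2 (Nfe2l2), its inhibitor Keap1 and 8 enzyme genes of antioxidant defence, Nqo1, Hmox1, Gclc, Gclm, Txnrd1, Srxn1, Gsr and Sod2. They were taken by symbol from a list of 10, and all 10 are among the 16910 genes of the count table and the 12639 genes tested. The samples are livers of 16 deer mice (Peromyscus maniculatus), each read by RNA sequencing. Regular chow was fed to 6 controls (C). The other 10 animals received a high fat diet (HFD) with sucrose and 58 kcal% fat for 28 weeks, and histology later divided them into 5 whose livers had no steatosis (NS) and 5 whose livers had it (S). All animals were 10 months old at the end.

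Steatosis was an outcome of the diet and not an assigned treatment, so S and NS differ in whatever made some animals develop it. Each group held 1 animal of the SM2 stock (P. maniculatus sonoriensis), and the other 13 animals were of the BW stock (P. maniculatus bairdii). The 3 female animals were all in S (S2, S4 and S5), so the male S animals were S1 and S3. Fits with sex as a covariate therefore compare only S1 and S3 with the other groups, and cannot separate sex from steatosis. Animals are named by group and a running number that pairs nothing across groups, and C1, NS1 and S1 are the SM2 animals. Total counts lay between 6374518 and 11349971 in C, 7336900 and 9362184 in NS, and 4640733 and 10892425 in S. Of 8 hepatocyte markers, 6 were in the table, and their summed level was 34832 to 62638 CPM (counts scaled to a common library size) over the animals, with Apoa1 the most abundant by mean. The sum hides changes of single markers. By edgeR 3 of the 6 had an adjusted p under 0.1 in S vs C, beside 10.8% of all genes tested. Apoa1 was higher (log2 +0.96, adjusted p = 0.0575), and Ttr (log2 -0.66, adjusted p = 0.0772) and Ass1 (log2 -0.89, adjusted p = 0.0854) were lower. Each rose over 0.1 when some single animals were left out, with an adjusted p of up to 0.121, 0.157 and 0.174 in the same order.

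NRF2 is a transcription factor that KEAP1 holds in the cytoplasm and marks for degradation. Oxidants and electrophiles modify KEAP1, and NRF2 then accumulates and activates genes for glutathione and thioredoxin metabolism, quinone reduction and haem breakdown. In liver this system is best known for defence against reactive metabolites, and because NRF2 is controlled mainly as a protein, the RNA of its targets is the usual readout of its activity.

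The genes did not move as a block. In livers with steatosis, Gclc and Nfe2l2 rose against chow, Gclm and Sod2 fell, and the RNA of Nqo1, Hmox1, Txnrd1, Srxn1, Gsr and Keap1 did not differ beyond the spread between animals. A gene was called when edgeR's quasi-likelihood test gave a Benjamini-Hochberg adjusted p under 0.1 over all genes tested and the difference was at least 2-fold. In S vs C, 1 of 10 genes was called (Gclc), where 4.06% of all genes were. At an adjusted p under 0.1 with any fold, 4 of 10 genes passed in S vs C, 2 higher and 2 lower, beside 10.8% of all genes. For the HFD livers without steatosis against chow, edgeR called 0 of 10 genes (0.0712% of all genes), and 0 passed with any fold (0.0791%). Without adjustment 3 of them, Nfe2l2, Gclm and Sod2, had a p under 0.05 there, beside 8.29% of all genes. Between S and NS, 0 of 10 genes were called and 0 passed with any fold (0.00791% of all genes by either rule), and Gclc alone had an unadjusted p under 0.05, beside 10.9% of all genes. DESeq2 also passed 0 of 10 in these 2 comparisons. Both comparisons with chow share the same 6 control animals.

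**Figure D1:**
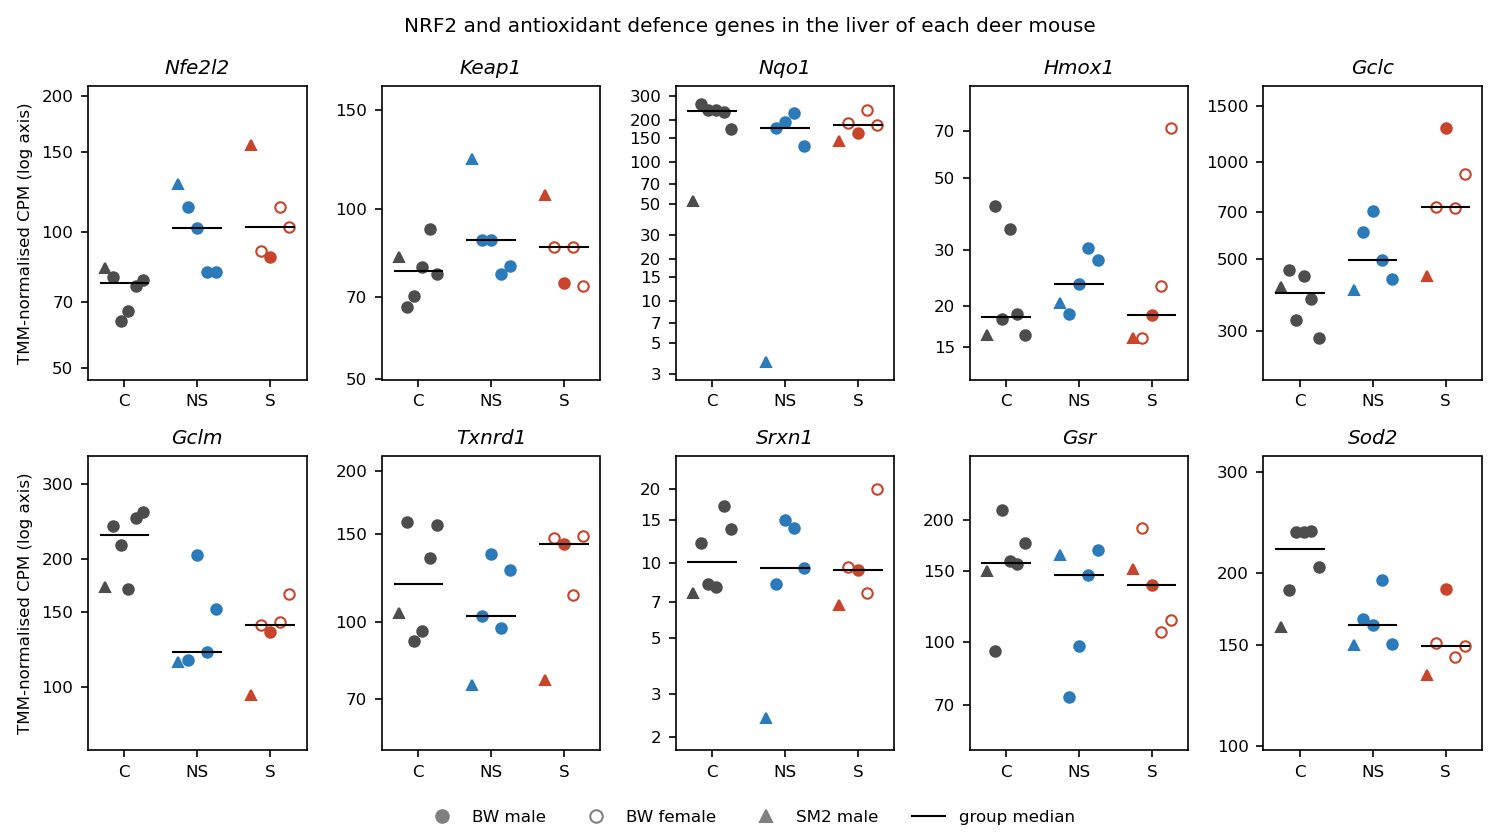
Level of each of the 10 genes in every animal, as TMM-normalised CPM on a log axis that differs between panels, by group; points are animals, open circles the 3 females, triangles the 3 SM2 animals, and bars the group medians. The S animals lie above all C animals for Nfe2l2 and below all of them for Gclm, and Nqo1 is lowest in the SM2 animals NS1 and C1.

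Nfe2l2, the gene of NRF2 itself, was higher in S than in C. Its level (CPM after TMM scaling, here and below) in C was 63.4 at the lowest, 77.0 at the median and 83.2 at the highest. The NS animals were at 128, 113, 102, 81.5 and 81.4 CPM in the order NS1 to NS5, and the S animals at 156, 90.4, 88.0, 114 and 103 CPM in the order S1 to S5. Every S animal was above every C animal, whereas NS4 and NS5 fell just below C1, and the ranges of S and NS overlapped. The log2 difference was +0.56 (SE 0.16, 5 vs 6 animals) in S vs C, with an edgeR adjusted p of 0.0590. In NS vs C it was +0.44 (SE 0.16, adjusted p = 0.513), with all 5 NS animals above the C median, and in S vs NS it was +0.12 (SE 0.17, adjusted p = 0.818). The S vs C difference passed narrowly. The edgeR adjusted p was 0.1004 without C3, 0.125 without C4, 0.104 without C5, 0.110 without C6 and 0.116 without S1, the SM2 animal with the highest level. Among BW animals alone the difference was +0.44 with an adjusted p of 0.0769. In bulk liver RNA, fewer cells of a type and less RNA per cell cannot be told apart, and this holds for every gene below.

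Keap1, which encodes the adaptor that hands NRF2 to the CUL3 ubiquitin ligase, showed no difference between groups beyond the spread between animals. Its level in C ranged from 67.2 to 92.4 CPM around a median of 77.8 CPM. The NS animals were at 123, 88.2, 88.2, 76.9 and 79.4 CPM, and the S animals at 106, 85.8, 74.1, 85.6 and 73.1 CPM. The groups overlapped, and the highest NS and S values belonged to the SM2 animals NS1 and S1. In S vs C the log2 difference was +0.12 (SE 0.14, edgeR adjusted p = 0.629), and +0.35 with scaling to the total count (adjusted p = 0.125). In NS vs C it was +0.22 (SE 0.14, adjusted p = 0.709).

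Nqo1, a quinone reductase often taken as the reporter gene of NRF2 activity, varied more by animal than by group. In C it was 52.5 CPM at the lowest, 232 at the median and 261 at the highest. The NS animals were at 3.66, 176, 193, 225 and 129 CPM, and the S animals at 143, 192, 162, 236 and 185 CPM. NS1 stood far below all other animals with 29 counts, and C1 was the next lowest. Both are SM2, and the 13 BW animals lay between 129 and 261 CPM. The log2 difference was -0.11 (SE 0.56) in S vs C, where edgeR's adjusted p was 0.930, and it was -0.23 in BW animals only, -0.38 with sex as a covariate, +0.22 with stock as a covariate and +0.12 with scaling to the total count. The NS vs C value was -0.45 (SE 0.57, adjusted p = 0.878).

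Hmox1, the haem oxygenase that NRF2 induces and that macrophages also express strongly, had 1 high animal. Levels in C were 16.3 to 41.1 CPM with a median of 18.5 CPM. NS animals were at 20.5, 18.9, 23.4, 30.3 and 27.8 CPM, and S animals at 16.0, 15.9, 18.8, 23.2 and 71.8 CPM. S5, a female, was above every other animal, and the other 4 S animals were within the range of C or just below it. The log2 difference in S vs C was +0.28 (SE 0.37, edgeR adjusted p = 0.690), and it was -0.39 without S5 and -0.48 with sex as a covariate. S5 also had the highest summed level of Kupffer cell and macrophage markers, 1305 CPM against 236, 626, 388 and 588 CPM in S1 to S4. That sum covers 10 of 12 listed markers, of which Marco was the most abundant by mean, and was 337 to 691 CPM in C and 329 to 670.1 CPM in NS. The part of these markers in the Hmox1 level was not tested.

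Glutamate-cysteine ligase makes the first and rate-limiting step of glutathione synthesis, and its subunits moved in opposite directions. Gclc encodes the catalytic subunit. In C its level was 285 CPM at the lowest, 394 at the median and 462 at the highest. The NS animals were at 403, 610.0, 705, 496 and 435 CPM, and the S animals at 445, 728, 1280.1, 721 and 924 CPM. All S animals but the SM2 animal S1 were above every C and every NS animal, and S1 lay inside the range of C. Gclc was 2.13-fold higher in S than in C, a log2 difference of +1.09 (SE 0.23, edgeR adjusted p = 0.0222), with 5 of 5 S animals above the C median. Among the BW animals C and S did not overlap (285 to 462 CPM in C, 721 to 1280.1 in S), and the difference was +1.28 (adjusted p = 0.00930). Without S3, the animal with the highest level, it was +0.87 (adjusted p = 0.0531) and no longer 2-fold. In NS vs C it was +0.46 (SE 0.23, adjusted p = 0.610), and in S vs NS +0.63 (SE 0.24, adjusted p = 0.388).

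Gclm encodes the modifier subunit, which raises the activity of the catalytic one. Its level in C was 170.2 CPM at the lowest, 227 at the median and 258 at the highest. NS animals had 114, 115, 204, 121 and 153 CPM, and S animals 95.6, 139.9, 134, 142 and 166 CPM. All S animals and all NS animals but NS3 were below every C animal. The log2 difference was -0.68 (SE 0.18, edgeR adjusted p = 0.0497) in S vs C, and -0.62 (SE 0.18, adjusted p = 0.395) in NS vs C. S and NS differed by -0.06 (SE 0.19, adjusted p = 0.932), and this sign turned to +0.07 with scaling to the total count. The S vs C difference had an adjusted p of 0.101 without C5, 0.111 without C6 and 0.170 with scaling to the total count, where it was -0.44.

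The counts of both genes can also be compared within each animal, where no scaling between libraries enters. The ratio of Gclc to Gclm counts was 1.11 at the lowest, 1.72 at the median and 2.61 at the highest in C. It was 3.52, 5.29, 3.45, 4.10 and 2.85 in NS1 to NS5, and 4.65, 5.21, 9.54, 5.09 and 5.58 in S1 to S5. Every animal on HFD had a higher ratio than every C animal, while NS and S overlapped through NS2. The mean was 1.84 ± 0.58 in C (SD, n = 6), 3.84 ± 0.92 in NS and 6.01 ± 2.00 in S (SD, n = 5 each). The ratio was chosen after the values of both genes were seen and was not tested, so it restates their differences in another form, and it would also rise if Gclc alone rose. Over the 16 animals Gclc and Gclm had r = -0.36 (permutation p = 0.166, adjusted p = 0.324; rho = -0.43, p = 0.0962, adjusted p = 0.257), and with group means removed r = 0.34. Because the ratio compares genes of different length, only its differences between animals can be read.

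**Figure D2:**
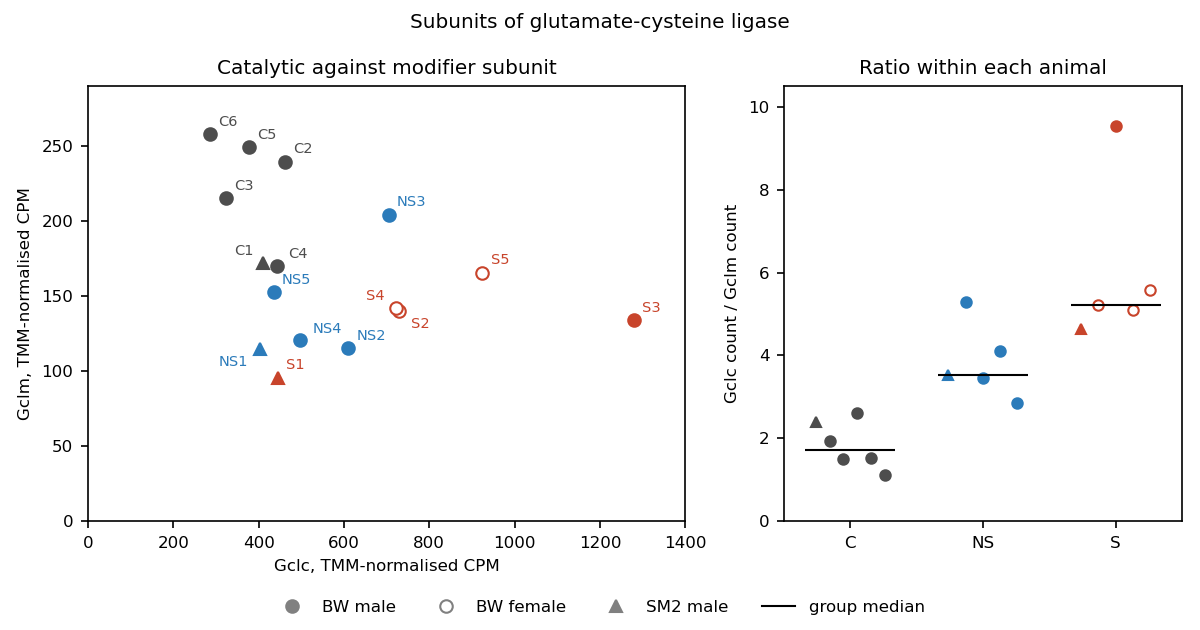
Left, Gclm against Gclc in TMM-normalised CPM, 1 point per animal; right, the ratio of their counts in each animal by group, with group medians as bars. Symbols are triangles for SM2, open circles for females and filled circles for BW males. All 10 HFD animals have a ratio of 2.85 or more, and the C animals end at 2.61.

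Gsr, the reductase that returns oxidised glutathione to its reduced form, did not differ between groups beyond the spread between animals. In C it was 95.1 CPM at the lowest, 157 at the median and 212 at the highest. The NS animals were at 164, 73.2, 98.1, 146 and 168 CPM and the S animals at 151, 191, 139, 106 and 113 CPM, so all groups overlapped. The log2 difference was -0.17 (SE 0.23, edgeR adjusted p = 0.690) in S vs C, and +0.07 with scaling to the total count. HFD without steatosis differed from chow by -0.28 (SE 0.23, adjusted p = 0.786).

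The 2 members of the thioredoxin system, Txnrd1 and Srxn1, showed no group difference beyond the spread between animals either. Txnrd1, the cytosolic thioredoxin reductase, was 91.4 CPM at the lowest, 119 at the median and 158 at the highest in C, 74.6, 103, 137, 96.9 and 127 CPM in NS, and 76.4, 147, 143, 113 and 148 CPM in S. The groups overlapped, and the lowest NS and S values were those of the SM2 animals. Srxn1, the sulfiredoxin that repairs overoxidised peroxiredoxins, was at 7.58 to 17.0 CPM in C with a median of 10.1 CPM, at 2.40, 8.29, 14.9, 13.9 and 9.63 CPM in NS, and at 6.82, 9.64, 9.38, 7.59 and 19.9 CPM in S. Here too the groups overlapped. Its lowest value was NS1 with 19 counts and its highest S5. In S vs C the edgeR log2 differences were +0.02 (SE 0.21, adjusted p = 0.959) for Txnrd1 and -0.05 (SE 0.38, adjusted p = 0.949) for Srxn1. With sex as a covariate Txnrd1 was at -0.17 and Srxn1 at -0.46. Srxn1 was at +0.21 with scaling to the total count, which moved the median of all genes by nearly as much.

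Sod2, the superoxide dismutase of mitochondria, was lower in S than in C. In C its level was 161 CPM at the lowest, 221 at the median and 236 at the highest. NS animals were at 150.01, 167, 163, 195 and 150.4 CPM, and S animals at 133, 151, 188, 143 and 149 CPM. S3 lay above C1 and just above C2, and the other 4 S animals were below every C animal. The log2 difference was -0.46 (SE 0.13, edgeR adjusted p = 0.0610) in S vs C, with 5 of 5 S animals below the C median, and -0.35 (SE 0.13, adjusted p = 0.525) in NS vs C. In S vs NS it was -0.11 (SE 0.14, adjusted p = 0.797), and +0.04 with scaling to the total count. The S vs C difference was close to the threshold. Leaving out 1 animal gave an adjusted p of 0.103 (C3), 0.131 (C4), 0.123 (C5), 0.111 (C6), 0.105 (S2) and 0.103 (S4). With sex as a covariate, where S1 and S3 alone stand for S, it was -0.39 (adjusted p = 0.232). With scaling to the total count it was -0.22 (adjusted p = 0.289).

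**Figure D3:**
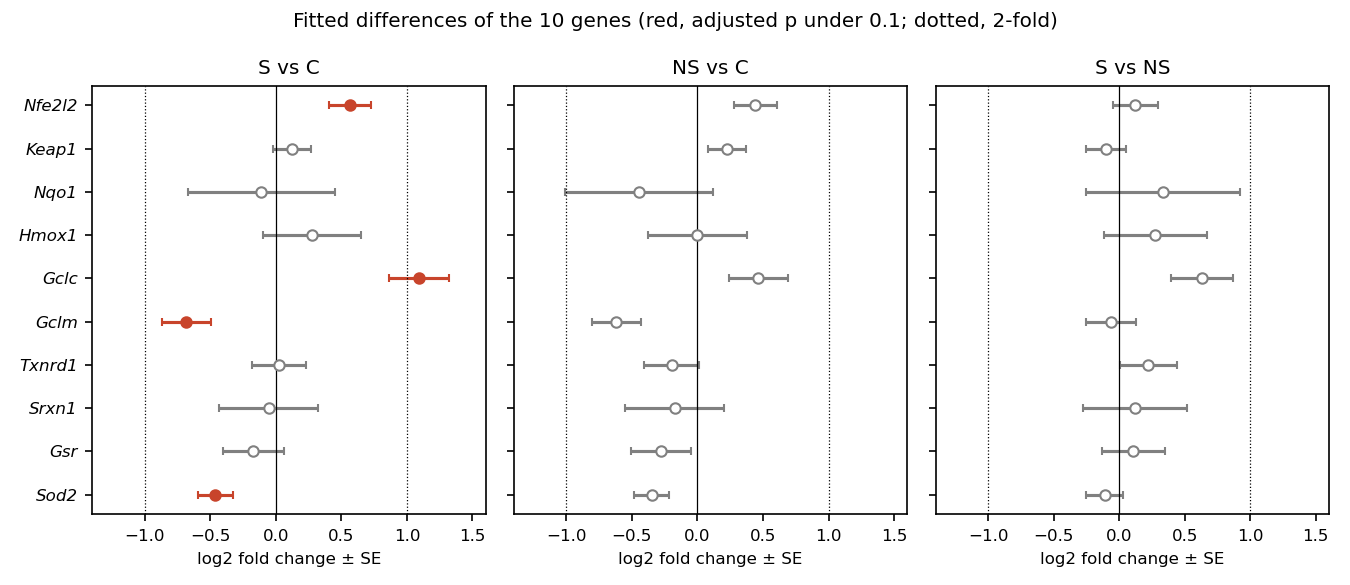
Fitted log2 difference of each gene in the comparisons of S with C, NS with C and S with NS, with its standard error; red, adjusted p under 0.1; dotted lines, 2-fold. In S vs C, Gclc is at +1.09, Nfe2l2 at +0.56, Gclm at -0.68 and Sod2 at -0.46, all of which kept their direction with scaling to the total count. That scaling raised the median of all genes in each comparison. With it the signs of Nqo1, Srxn1 and Gsr flipped in S vs C, that of Hmox1 flipped between NS and C, and those of Keap1, Gclm and Sod2 in S vs NS.

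Part of each difference depends on how libraries are scaled. The TMM factors were 0.851 to 1.00 in C, 0.881 to 1.10 in NS and 1.01 to 1.17 in S, so C and S did not overlap. Scaling to the total count instead moved the median log2 difference of all genes in S vs C from 0.10 to 0.33, a shift of 0.23, and that in S vs NS by 0.13. Measured from the median of all genes in S vs C, Gclc was at +0.99 with TMM and +1.01 with the total count. In the same order Nfe2l2 was at +0.46 and +0.45, Gclm at -0.78 and -0.77, and Sod2 at -0.56 and -0.55. Over the 10 genes the median log2 difference was -0.02 for S against C, -0.19 for NS against C and 0.12 for S against NS, beside 0.10, 0.01 and 0.04 over all genes tested.

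Around these 10 genes, 71 other genes of the pathway were listed by function, and 59 of them were in the table and tested. In S vs C, 1 was called, Me1, and at an adjusted p under 0.1 with any fold 1 was higher and 11 were lower. Over all genes tested, 4.06% were called and 10.8% passed with any fold, 5.39% higher and 5.36% lower, and the list counts given next are to be read beside these shares. The 1 call is below the share of all genes. Their median log2 difference was -0.21 beside 0.10 for all genes. With scaling to the total count 6 were higher and 8 lower, where 18.1% of all genes passed, and their median was 0.04 beside 0.33. Without C4, S2 or C2 in turn, 6, 6 and 14 were lower, where 3.61%, 6.13% and 12.1% of all genes passed. Without S3, 0 were higher and 7 lower, where 4.85% of all genes passed. For NS against C edgeR called 0 of 59, with 10 at an unadjusted p under 0.05 (8.29% of all genes), and DESeq2 called 1, Me1, where it called 0.356% of all genes. In S vs NS edgeR also called 0, with 12 at an unadjusted p under 0.05 (10.9% of all genes), and DESeq2 passed 2 at an adjusted p under 0.1, Blvra and Msra, neither of them 2-fold, where it passed 0.767% of all genes.

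Of the glutathione list 3 of 14 fell in S vs C, Gpx1, Gpx4 and Glrx3, and 0 rose. Gpx1, the main cytosolic glutathione peroxidase of liver, was at 2133 to 3593 CPM in C with a median of 2733 CPM. It was at 3216, 2604, 1350.5, 2332 and 1670.3 CPM in NS and at 1781, 1331, 1067, 1349.9 and 1499 CPM in S. S and C did not overlap, and NS reached from one into the other. The log2 difference in S vs C was -0.97 (SE 0.21, edgeR adjusted p = 0.0266). Gpx4, which reduces lipid peroxides in membranes, was at -0.85 (SE 0.19, adjusted p = 0.0277), and the glutaredoxin Glrx3 at -0.47 (SE 0.16, adjusted p = 0.0889). Slc3a2, a subunit of the cystine carrier, had the smallest p of this list in NS vs C, at -0.47 (adjusted p = 0.511), and Gpx1 that in S vs NS, at -0.67 (adjusted p = 0.321).

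Of the thioredoxin list 5 of 11 genes tested fell in S vs C and 0 rose. Prdx1 and Prdx6 were listed too but were not among the counts by these symbols. Msra, which repairs oxidised methionine, was at 178 to 227 CPM in C with a median of 215 CPM, at 154, 192, 166, 195 and 144 CPM in NS, and at 144, 129, 88.6, 121 and 126 CPM in S. All S animals were below every C animal, and NS reached into both. The difference was -0.78 on the log2 scale (SE 0.14, edgeR adjusted p = 0.0125), and that of Msrb1, the selenium-containing enzyme of the same repair, was -0.66 (SE 0.16, adjusted p = 0.0358). Txn1, the cytosolic thioredoxin, was at -0.87 (SE 0.20, adjusted p = 0.0325), its mitochondrial counterpart Txn2 at -0.66 (SE 0.18, adjusted p = 0.0525) and the peroxiredoxin Prdx5 at -0.64 (SE 0.18, adjusted p = 0.0546). Txnip, an inhibitor of thioredoxin, had the smallest p of the list in NS vs C, at -1.69 (SE 0.63, adjusted p = 0.518), and Msrb1 that in S vs NS, at -0.58 (adjusted p = 0.292).

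The NADPH list holds enzymes that supply NADPH to these reductases and other enzymes of the pentose phosphate pathway. G6pdx and Nnt of this list were not among the counts by these symbols. Of the 5 genes tested, Me1, the cytosolic malic enzyme, was called in S vs C and 0 fell. In C it ranged from 105 to 524 CPM around a median of 241 CPM. It was at 597, 989, 958, 574 and 884 CPM in NS, and at 834, 1039, 1194, 621 and 297 CPM in S. NS was above C throughout, and of the S animals only S5 lay within C. The log2 difference was +1.45 in both comparisons, with an SE of 0.38, and edgeR's adjusted p was 0.0476 for S and 0.299 for NS. Tkt, a transketolase of the pentose phosphate pathway, had the smallest p in S vs NS, at +0.53 (adjusted p = 0.414).

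Of 13 genes tested for detoxification, haem and export, 2 fell in S vs C, Blvra and Mgst1, and 0 rose. This list had 20 genes, and Cbr1, Ephx1, Gsta4, Gstm1, Gstp1, Ftl1 and Fth1 were not among the counts by these symbols. Blvra, the biliverdin reductase that acts after haem oxygenase, was at 58.7 to 78.6 CPM in C with a median of 68.2 CPM. It was at 95.6, 54.1, 52.9, 59.8 and 69.2 CPM in NS and at 33.7, 38.0, 38.3, 34.1 and 41.3 CPM in S, so all S animals were below all others. The log2 difference was -0.89 (SE 0.15, edgeR adjusted p = 0.0125) in S vs C and -0.84 (SE 0.16, adjusted p = 0.172) in S vs NS. Mgst1, a membrane-bound glutathione transferase, was at -0.67 (SE 0.20, adjusted p = 0.0610). The exporter Abcc2 had the smallest p of the list in NS vs C, at -0.81 (adjusted p = 0.594). Of 12 partners and regulators of NRF2, 1 fell in S vs C, Rbx1 of the CUL3 ligase, at -0.48 (SE 0.14, adjusted p = 0.0651), and 0 rose. Pgam5, a mitochondrial partner of KEAP1, had the smallest p there in NS vs C, at +0.36 (adjusted p = 0.591), and Rbx1 that in S vs NS, at -0.37 (adjusted p = 0.405). Of the other superoxide dismutases, their copper chaperone and catalase, 0 of 4 passed in S vs C, with 2 at an unadjusted p under 0.05 (23.8% of all genes). DESeq2 passed 1 of them in S vs C, Sod1, where it passed 13.6% of all genes. In edgeR, Sod1 was at -0.62 there (adjusted p = 0.123), Sod3 at -0.36 in NS vs C (adjusted p = 0.715) and Ccs at -0.22 in S vs NS (adjusted p = 0.581).

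Gpx1, Gpx4, Txn1, Msra, Msrb1 and Blvra kept an adjusted p under 0.1 whichever animal was left out. Me1 did not without S3 (adjusted p = 0.105). Glrx3 was at 0.107 to 0.182 without C3, C4, C5, C6, S2, S3, S4 or S5, and Rbx1 at 0.104 to 0.140 without C4, C5, C6, S2 or S5. Mgst1 was at 0.105 to 0.133 without C4, C5, C6, S2 or S3. Txn2 was at 0.103 to 0.115 without C4, C6, S2 or S3, and Prdx5 at 0.107 to 0.115 without C4, C5, S2 or S3. With sex as a covariate, where S1 and S3 alone stand for S, Rbx1, Glrx3 and Prdx5 were at -0.38, -0.39 and -0.42 (edgeR adjusted p = 0.275, 0.300 and 0.302). With scaling to the total count Rbx1, Glrx3 and Txn2 were at -0.23, -0.22 and -0.42 (adjusted p = 0.212, 0.258 and 0.103). Glrx3 passed in 5 of the 8 settings other than leaving out animals. Gpx4, Glrx3, Txn1, Txn2, Prdx5 and Mgst1 lie outside the rule for naming genes and were named after their values were seen.

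**Figure D4:**
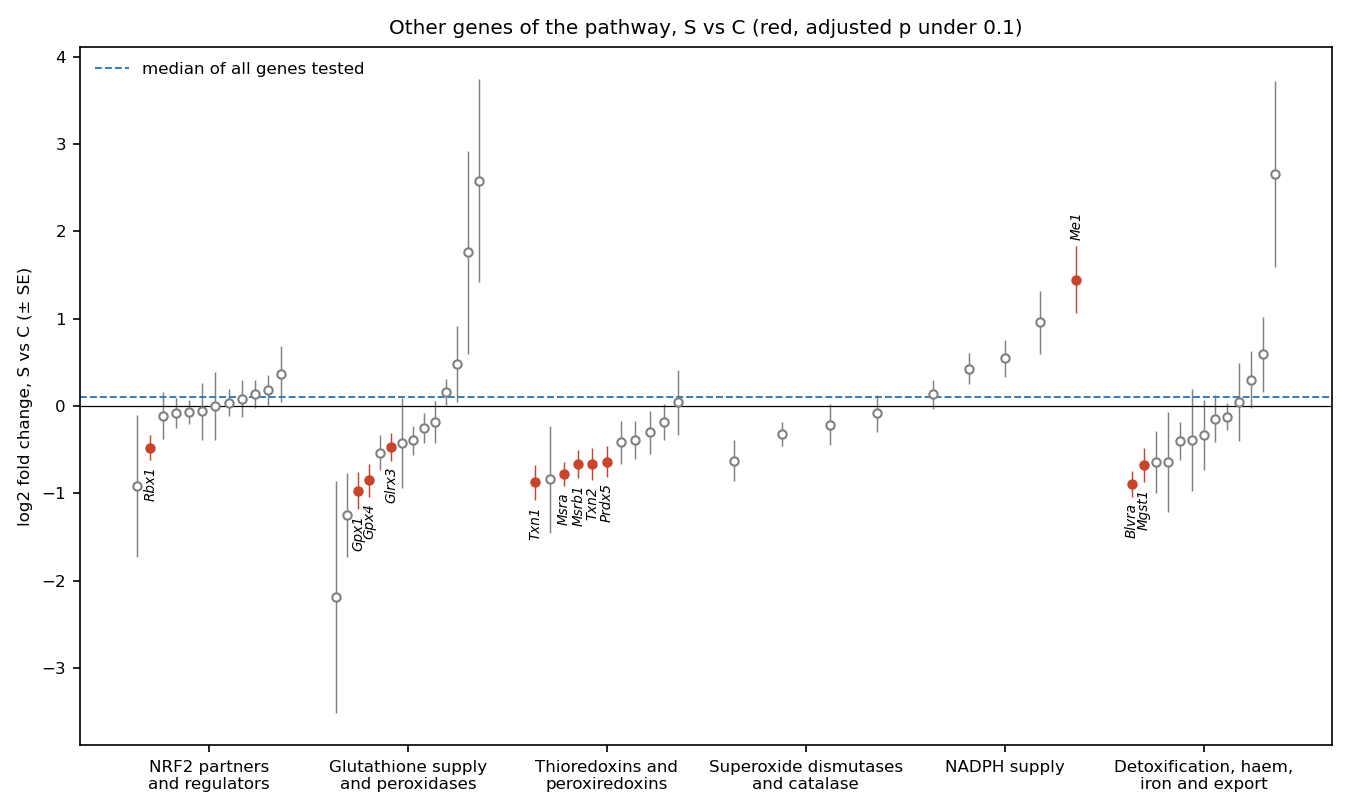
Log2 difference in S vs C, with its standard error, of the 59 other genes of the pathway, 1 point per gene, by list; red points passed an adjusted p under 0.1, and the dashed line is the median of all genes at 0.10. Of the 12 red genes, Me1 is above 0 and 11 are below, and with scaling to the total count each kept its side of 0.

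Stock was the other axis along which the genes differed. A comparison of the 3 SM2 animals with the 13 BW animals, with group in the model, was added after the values were seen. By edgeR, 2 of 10 genes were called, Nqo1 and Srxn1, beside 10.8% of all genes, and 6 of 10 had an adjusted p under 0.1, beside 21.8% of all genes. Nfe2l2 and Keap1 were higher in SM2, by +0.43 (SE 0.13, adjusted p = 0.0350) and +0.36 (SE 0.12, adjusted p = 0.0529). Of the 8 enzyme genes, 4 were lower in SM2, Nqo1 at -1.88 (SE 0.56, adjusted p = 0.0318), Srxn1 at -1.09 (SE 0.36, adjusted p = 0.0467), Txnrd1 at -0.57 (SE 0.18, adjusted p = 0.0448) and Gclm at -0.46 (SE 0.17, adjusted p = 0.0777). Hmox1, Gclc, Gsr and Sod2 did not pass. With scaling to the total count 5 of 10 genes passed, beside 20.0% of all genes, and Gclm did not (adjusted p = 0.135).

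With so few SM2 animals, each of them weighs heavily. Of the 10 genes, 5 passed without C1 and 1 without NS1 or without S1, where 19.7%, 10.3% and 12.0% of all genes passed. Nqo1 was at -1.73 (adjusted p = 0.121) without C1, at -1.14 (0.0440) without NS1 and at -3.12 (0.00267) without S1, by edgeR. Srxn1 was at -1.39 (0.0536), -0.71 (0.298) and -1.25 (0.105) without these animals in turn. For Nfe2l2 the adjusted p was 0.0318 without C1, 0.142 without NS1 and 0.236 without S1. For Keap1 it was 0.0318, 0.339 and 0.182, for Txnrd1 0.0428, 0.188 and 0.284, and for Gclm 0.146, 0.189 and 0.332. Gclc passed only without C1, at -0.74 (0.0774). What sets the stocks apart was not tested.

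**Figure D5:**
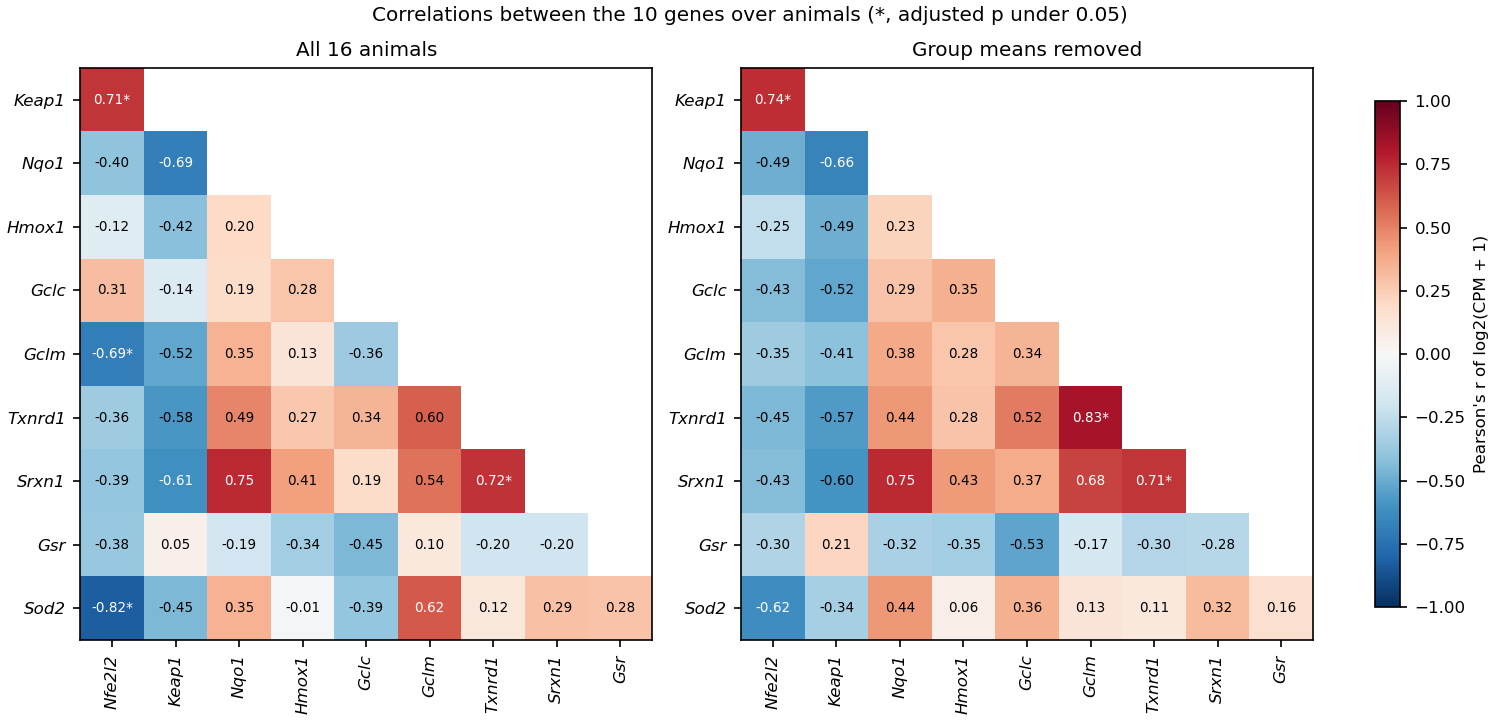
Pearson's r between the 10 genes over 16 animals, on log2(CPM + 1), left as measured and right with each group's mean removed; asterisks mark an adjusted p under 0.05 over 45 pairs. Nfe2l2 and Sod2 run opposite to each other at left, and Txnrd1 runs with Gclm and with Srxn1 at right.

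Over the 16 animals the genes varied together only in part. Of 45 pairs, 23 had a positive Pearson's r, and 4 had an adjusted p under 0.05 in a permutation test (2-sided, 100000 permutations, Benjamini-Hochberg over the 45 pairs). Nfe2l2 ran opposite to Sod2 (r = -0.82, p = 9e-05, adjusted p = 0.00405; Spearman's rho = -0.85, permutation p = 0.00012, adjusted p = 0.00540), and r was -0.80 without NS1 and S1, the animals farthest from the median of Nfe2l2. Nfe2l2 and Gclm were also opposite (r = -0.69, permutation p = 0.00269, adjusted p = 0.0303; rho = -0.74, p = 0.00138, adjusted p = 0.0311), and r fell to -0.50 without NS1 and S1. Nfe2l2 and Keap1 ran together (r = 0.71, permutation p = 0.00217, adjusted p = 0.0303; rho = 0.56, p = 0.0245, adjusted p = 0.184), as did Txnrd1 and Srxn1 (r = 0.72, permutation p = 0.00077, adjusted p = 0.0173; rho = 0.70, p = 0.00338, adjusted p = 0.0507). Without the 2 farthest animals these were 0.43 and 0.55, so that of Nfe2l2 and Keap1 rests largely on the SM2 animals NS1 and S1. Nqo1 and Srxn1 had r = 0.75 but did not pass (permutation p = 0.00724, adjusted p = 0.0652; rho = 0.34, p = 0.195, adjusted p = 0.341), and r was 0.16 without C1 and NS1.

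Group differences enter those values. With each group's mean removed and animals permuted within groups, 3 of 45 pairs passed by Pearson's r, and all 3 were positive. Gclm and Txnrd1 were the closest pair and the only one that had not passed before (r = 0.83, permutation p = 0.00054, adjusted p = 0.0243; rho = 0.86, p = 0.00032, adjusted p = 0.0144), with r = 0.77 without NS3 and S1. Txnrd1 and Srxn1 (r = 0.71, permutation p = 0.00282, adjusted p = 0.0432; rho = 0.77, p = 0.00177, adjusted p = 0.0266) and Nfe2l2 and Keap1 (r = 0.74, permutation p = 0.00288, adjusted p = 0.0432; rho = 0.57, p = 0.0371, adjusted p = 0.167) were the others. They had r = 0.61 and r = 0.47 without NS1 and S1. By rank Nfe2l2 and Keap1 did not pass, while Gclm and Srxn1 did (rho = 0.82, permutation p = 0.00087, adjusted p = 0.0196). The latter pair did not pass by Pearson's r (r = 0.68, permutation p = 0.0171, adjusted p = 0.154). Nfe2l2 and Sod2 then had r = -0.62 and did not pass. In the 13 BW animals alone, 1 pair passed, again Nfe2l2 and Sod2 (r = -0.82, permutation p = 0.00087, adjusted p = 0.0392), and with group means removed 0 of 45 did.

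The genes most like Nqo1 over the 16 animals, with group means removed, were Dnase1l3 (r = 0.90), Smim14 (r = 0.90), Tcn2 (r = 0.89), 1700020D05Rik (r = 0.89) and Abcc2 (r = 0.88), among 10325 genes with a mean of at least 1 CPM. All 5 were at their lowest in NS1. Without NS1 the values were 0.66, 0.46, 0.65, 0.65 and 0.76, so the likeness is in large part that of 1 animal.

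Markers of other cell types were measured beside these genes, because a changed mixture of cells moves bulk RNA. Neutrophil markers (7 of 8 in the table, S100a9 the most abundant by mean, Ngp at 0 in 6 animals, Camp in 5, Cxcr2 in 3 and Elane in 13) summed to 27.1 to 76.3 CPM in C, to 14.4, 56.6, 10.4, 56.5 and 26.2 CPM in NS, and to 14.5, 16.1, 13.3, 5.06 and 25.1 CPM in S. The sums of C and S did not overlap, and S100a8 (log2 -1.98, edgeR adjusted p = 0.0452) and S100a9 (log2 -1.77, adjusted p = 0.0497) were called lower in S. With sex as a covariate, where S1 and S3 alone stand for S, S100a8 and S100a9 were at log2 -1.98 and -1.87 and did not pass (edgeR adjusted p = 0.144 and 0.138). Of the 5 neutrophil markers tested, Camp was also below 0 but did not pass (log2 -2.35, adjusted p = 0.215), and Csf3r and Cxcr2 were above 0 (log2 +0.33 and +0.26, adjusted p = 0.768 and 0.902), so the sum follows mainly the S100 genes. Stellate cell markers (6 of 6, Dcn the most abundant by mean, none at 0) summed to 308 to 574 CPM in C, 244 to 447 CPM in NS and 254 to 2394 CPM in S. The highest sum was that of S3, where Col1a1 alone reached 2058 CPM and Gclc was also at its highest. Of that list Dcn was called lower in S vs C (log2 -1.05, adjusted p = 0.0354). Col1a1 was called higher (log2 +5.56, adjusted p = 0.0397), but this rests on S3 alone, without which it was at -0.28 (adjusted p = 0.736). Kupffer cell and macrophage, sinusoidal endothelial (6 of 6 markers), bile duct (4 of 5) and early response genes (6 of 7) had 0 calls by edgeR in S vs C (4.06% of all genes). An unadjusted p under 0.05 was reached there by 0 of them (23.8% of all genes). Of the Kupffer cell and macrophage markers 9 of 10 had a log2 difference above 0, beside 57.8% of all genes. Their median was 0.41 beside 0.10 for all genes. The sinusoidal endothelial, bile duct and early response genes had 4 of 6, 3 of 4 and 3 of 6 above 0, with medians of 0.32, 0.41 and -0.05. Erythroid markers were nearly absent, with 2 of 7 in the table and sums of at most 10.2 CPM. The part of these markers, and of sex, in the S vs C differences of the 10 genes was not tested. Females were only in S, so the fits with sex as a covariate rest on S1 and S3 there.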

How the data were processed

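RNA libraries were made with a directional kit from livers whose RNA quality scores were high per the labels. Per the study's methods the authors aligned reads with STAR 2.7.2 to HU_Pman_2.1, counted them per gene with featureCounts of Subread, and deposited the counts without normalization, by gene symbol. The strand setting and the conversion to symbols are not given in the sources used here, so counts of overlapping genes, antisense genes and close paralogs, such as the glutathione transferases, are uncertain. These counts were tested, for genes reaching 0.5 CPM in 1 animal or more, with edgeR 4.0.16 (limma 3.58.1, R 4.3.3), glmQLFit and glmQLFTest, with TMM factors and all 16 animals in 1 fit without covariates. The SE is the log2 difference divided by the square root of F. Animals were the replicates, as the study's record gives them. Correlations used log2(CPM + 1), Python 3.11.15, numpy 2.4.6, pandas 2.3.3 and scipy 1.17.1, and figures matplotlib 3.10.9. Alternatives planned beforehand were RLE size factors, DESeq2 1.42.0, no low count filter, sex as a covariate, BW animals only, only the groups compared, and each animal left out. Scaling to the total count, stock as a covariate and correlations of BW animals with group means removed were added after seeing the data. The members and lists were chosen with earlier results of these data known. Named are all members, every other pathway gene called in a comparison, the gene with the smallest p in each list and comparison, and the 5 genes most like Nqo1, with exceptions stated. The edgeR and correlation steps were tested on simulated data. Protein, enzyme activity, glutathione and body weight were not analysed here.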

Additional observations from a re-analysis of the deposited data

Results flagged for a closer look

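In 4 of 33 groups of animals examined for the 10 genes and the ratio of Gclc to Gclm, the highest animal stood apart from the next by a gap past the limit of Dixon's test for its number of animals, and all 4 were groups of 5, where the limit is 0.71 of the range. By chance alone about 1 in 20 such groups would show this. Keap1 was 122.65 CPM in NS1, and the next highest NS animal was at 88.2 CPM. Hmox1 was 71.81 CPM in S5, and the next S animal was at 23.2 CPM. Srxn1 was 19.931 CPM in the same animal S5, against 9.64 CPM in the next. The ratio of Gclc to Gclm counts was 9.5385 in S3, from 6820 and 715 counts, against 5.58 in S5.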

How the results depend on the processing

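Beside leaving out animals, 8 other settings were run for each gene and comparison. Of 240 values so obtained for the 10 genes, 224 kept their direction and side of the adjusted p threshold, and of 480 values with 1 animal left out, 441 did. Only 4 differences passed at the start, all in S vs C, so for the others keeping that side says little. Of the 16 fits with 1 animal left out, the adjusted p was over the threshold in 5 for Nfe2l2, 2 for Gclm, 6 for Sod2 and 0 for Gclc. In the 8 other settings Nfe2l2 and Gclc passed in 8, Gclm in 7 and Sod2 in 6. The causes of the changes below were not tested. With scaling to the total count the S vs C log2 differences of Nqo1, Srxn1 and Gsr became 0.12, 0.21 and 0.0697, that of Hmox1 in NS vs C 0.0756, and those of Keap1, Gclm and Sod2 in S vs NS 0.0183, 0.0666 and 0.0410. With stock as a covariate Nqo1 became 0.22 in S vs C and Hmox1 0.0395 in NS vs C. With sex as a covariate Hmox1 and Txnrd1 became -0.48 and -0.17 in S vs C, and Hmox1 and Srxn1 -0.48 and -0.29 in S vs NS. With 1 animal left out, S vs C ranged from -0.39 to 0.49 for Hmox1, -0.0478 to 0.16 for Txnrd1 and -0.42 to 0.11 for Srxn1. NS vs C ranged from -0.10 to 0.21 for Hmox1 and -0.38 to 0.0743 for Srxn1. S vs NS ranged from -0.0267 to 0.22 for Nfe2l2, -0.18 to 0.0314 for Keap1, -0.39 to 0.44 for Hmox1, -0.15 to 0.11 for Gclm, -0.24 to 0.32 for Srxn1 and -0.0413 to 0.22 for Gsr. Members called in S vs C ranged from 0 (without S3) to 1, and members with an adjusted p under 0.1 from 1 to 4, with 2 under scaling to the total count. Other pathway genes called in S vs C (1) were 2 with DESeq2, BW animals only or only the groups compared, 3 with scaling to the total count or stock as a covariate, 4 with sex as a covariate, and 0 to 2 with 1 animal left out. Those with an adjusted p under 0.1 (12) were 16 with DESeq2 or stock as a covariate, 17 in BW animals only, 11 to 15 in the other settings, and 7 to 15 with 1 animal left out. In NS vs C, DESeq2 called 1, which was also the 1 with an adjusted p under 0.1. In S vs NS, 1 was called in BW animals only and 1 with stock as a covariate, and an adjusted p under 0.1 was reached by 2 with DESeq2, sex or stock as a covariate, and by 1 in BW animals only. Correlated pairs (4) were 1 in BW animals only and 0 with group means also removed. Over all genes, calls in S vs C went from 513 to 927 with scaling to the total count and to 192, 219, 245 and 247 without C6, C4, S3 and C5, so the shares over all genes depend on single animals too. With any fold they went from 1359 to 2286 with scaling to the total count, 2015 with stock as a covariate, 1723 with DESeq2, and as few as 448 without C6. In S vs C, 6.08% of all genes were called with sex as a covariate and 4.95% in BW animals only. With any fold these shares were 9.75% and 12.6%, beside 18.1% with scaling to the total count and 3.55% without C6. Calls in NS vs C went from 9 to 45 with DESeq2, 29 with stock as a covariate, and 2 to 29 with 1 animal left out. In S vs NS they were 1 to 15 with 1 animal left out, and went from 1 to 59, 191, 18, 17 and 0 with DESeq2, sex as a covariate, BW animals only, stock as a covariate and only the groups compared. No paired analysis was possible because each liver came from a different animal and nothing pairs animals across groups. Each group holds 1 SM2 animal, females are only in S, and 1 CPM is worth 5.33 to 11.5 counts, which limits Srxn1 and Hmox1 most.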

Other observations

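Among the 59 other pathway genes, 15 had an adjusted p under 0.1 between the SM2 and BW animals by edgeR, 5 higher and 10 lower in SM2, and 5 of them differed at least 2-fold. Over all genes tested 21.8% passed and 10.8% did so with at least 2-fold, so these counts are near or below what all genes show. Those named here were chosen after their values were seen. Abcc4, an exporter of organic anions, was at 10.8, 4.79 and 10.7 CPM in the SM2 animals C1, NS1 and S1, below every BW animal (log2 -2.02, SE 0.24, adjusted p = 3.1e-05). Gstm3, a glutathione transferase, was at 20.9, 28.5 and 211 CPM in the same animals (log2 +3.20, SE 0.63, adjusted p = 0.00283). Among BW animals S5 alone reached such a level, with 50.1 CPM. Prdx3, the mitochondrial peroxiredoxin, was at 70.7, 64.3 and 60.1 CPM in SM2, below every BW animal (log2 -0.85, SE 0.19, adjusted p = 0.00643).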
